A study of Mus musculus with 8 samples.

Results

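Blood plasma carries hydrophobic and poorly soluble molecules on a small set of secreted proteins, and 10 genes for such carriers are described here among the 31791 gene names of a mouse expression array. They are Ttr, Rbp4, Gc, Alb, Apoa1, Apoa4, Apob, Apoc3, Apoe and Apod, and a probe was taken when the array design gave it one of these names. The list was chosen by function and by earlier results of the same arrays, namely the signals of Ttr and Gc after interferon (IFN)-λ2, which lay above and below control. For this reason the comparison of IFN-λ2 with control is given as a description, with no p-value for any of the 10 genes and with nothing read from their count of calls. The same holds for Ttr and Gc in the comparison of IFN-λ2 with IFN-β, which uses the same IFN-λ2 arrays.

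The RNA came from IEC10 cells, an immortalized intestinal epithelial line derived from a transgenic mouse that carries firefly luciferase under the Mx2 promoter. It is a single line, and every group shares this transgene. Cells were grown for 21 days on transwell inserts until polarized and then received no interferon (control, 2 arrays, replicates 2 and 3), IFN-λ2 at 20 ng/mL for 9 h (3 arrays) or IFN-β at 500 U/mL for 9 h (3 arrays). The study asked which genes respond to type III interferon, the IFN-λ family, and to type I interferon, here IFN-β, in polarized gut epithelium. Each of the 8 arrays was hybridised with 1 RNA sample in 1 colour, and neither the labels nor the methods say that replicates were separate cultures, so that p-values measure only the spread between these samples. All arrays of a replicate number lay on the same slide, and each group held its own position on the slides, so that group and position cannot be told apart.

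As background, transthyretin (Ttr) carries thyroxine and holds retinol-binding protein (Rbp4) in the circulation, while Rbp4 itself takes retinol from the liver to other tissues. The Gc protein binds vitamin D metabolites and free actin, and albumin (Alb) binds fatty acids and many other ligands. Apolipoproteins are the protein part of lipoprotein particles. Apob and Apoa4 are made by enterocytes during fat absorption, Apoa1 is the main protein of high-density lipoprotein, Apoc3 slows the clearance of triglyceride-rich particles, Apoe directs particles to receptors, and Apod is a lipocalin that binds small lipids. Most of these genes are best known from the liver, and the choroid plexus is the other classical site of Ttr.

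The 10 genes had 14 probes on the array, and 4 genes (Gc, Apob, Apoc3 and Apod) had more than 1. Values are normalized gPS units, the scanner's background-subtracted signal after linear scaling of each array to a 75th percentile of 1500, and values below 15 were set to 15 before taking log2. A probe was tested when it exceeded 15 on at least 2 arrays, which 8 of the 14 probes from 7 genes did. Of the 14 probes, 3 were well above background by the scanner's own criterion on all 8 arrays, and no member probe was saturated. The probes of Apoa1, Apoa4 and Apob, and 1 further probe each of Apoc3 and Apod, were well above background on no array and stayed below 15 on all of them.

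Array coordinates are those of the design, in build mm9 and without annotation of exons or UTRs, so that a probe's place inside its gene is not given here. The 2 Gc probes lie on the minus strand, A_55_P2022158 at chr5:89846592-89846651 and A_51_P349961 at chr5:89864029-89864558, with 17377 bases between them. The probe A_51_P349961 is 60 bases long but spans 530 bases of the genome, so its bases are not contiguous there. It is shown because it gives a second reading of Gc, and the Apoe probe A_51_P171999, at chr7:20281732-20281791 on the minus strand, because it reads an apolipoprotein that was measured on every array.
Gc probe: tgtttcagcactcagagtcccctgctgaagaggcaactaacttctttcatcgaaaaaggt
Apoe probe: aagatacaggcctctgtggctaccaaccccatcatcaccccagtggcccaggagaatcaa

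Promoters were read from RefSeq in build GRCm38.p6. For 8 of the genes 11 windows were used, each from 250 bases before to 50 after a start site. The 250 bases before the start are printed for Gc and Rbp4, whose signals differed between groups. For Rbp4 this difference was near background and depended on the background correction. The same stretch is printed for Alb, a relative of Gc whose gene lies on the same chromosome and which was near background. Capitals mark matches to the letters searched for on both strands. The Gc stretch is chr5:89457899-89458148 on the minus strand, the Alb stretch chr5:90460620-90460869 on the plus strand, and the Rbp4 stretch chr19:38124812-38125061 on the minus strand.
Gc: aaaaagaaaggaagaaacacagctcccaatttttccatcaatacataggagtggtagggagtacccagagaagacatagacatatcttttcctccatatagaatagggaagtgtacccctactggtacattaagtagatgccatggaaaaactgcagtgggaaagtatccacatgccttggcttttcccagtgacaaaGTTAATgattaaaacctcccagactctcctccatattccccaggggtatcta
Alb: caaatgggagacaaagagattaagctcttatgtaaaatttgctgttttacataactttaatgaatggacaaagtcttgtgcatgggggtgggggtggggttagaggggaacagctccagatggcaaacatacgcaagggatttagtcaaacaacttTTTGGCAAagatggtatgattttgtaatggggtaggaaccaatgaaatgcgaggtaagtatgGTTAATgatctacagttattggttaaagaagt
Rbp4: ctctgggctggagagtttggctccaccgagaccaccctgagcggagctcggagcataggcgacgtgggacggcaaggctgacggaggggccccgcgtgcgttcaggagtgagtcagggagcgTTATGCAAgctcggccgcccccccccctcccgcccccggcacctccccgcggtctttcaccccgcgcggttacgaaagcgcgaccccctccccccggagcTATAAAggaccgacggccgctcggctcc

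Gc and Alb share the letters GTTAAT, part of the site of the liver-enriched factor HNF1, and GTTAAT is held by 7.1% of 32851 mouse promoter windows. It begins 52 bases before the start in Gc and 32 bases before it in Alb. The Alb stretch also holds TTTGGCAA, a match on the other strand to the C/EBP letters TTGCNNAA that 10.8% of windows hold. Rbp4 has such a match 128 bases before the start and TATAAA, found in 13.6% of windows, 28 bases before it. These lie in the printed window, and the other Rbp4 window of the table, chr19:38125272-38125571, held no match. The interferon-stimulated response element, searched as GAAA followed after any 2 bases by a further GAAA (3.44% of windows), the letters TTCNNNGAA of the gamma-activated sequence (8.3%) and CAAAGTCCA of HNF4 sites (0.475%) were not found in any of the 11 windows, which says only that these letters are not there. Matches were also found in the windows of Apob and Apoe, which were not printed, and those shown do not overlap each other. Ttr and Apoc3 were not searched. A match is a description and not a shown binding site.

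Ttr was higher on every IFN-λ2 array than on any other array. Its probe gave 440.7, 199.9 and 159.0 normalized gPS units on IFN-λ2 replicates 1, 2 and 3. On control replicates 2 and 3 it gave 21.9 and 13.5, and on IFN-β replicates 1, 2 and 3 it gave 18.6, 14.2 and 10.3. It was well above background on the 3 IFN-λ2 arrays and on no other array, so the control and IFN-β values are bounds and not levels. The group means were 267 ± 152 with IFN-λ2 (SD, n = 3), 18.4 ± 4.85 in control (SD, n = 2) and 16.2 ± 2.08 with IFN-β (SD, n = 3). Against the dimmest signal that counted as well above background, the IFN-λ2 level of Ttr exceeded control at least 13.0-fold and IFN-β at least 11.6-fold. These are bounds on the scanner's background-subtracted signal only. Another background correction, described below, gave smaller log2 differences (2.03 from control and 2.18 from IFN-β). The fitted log2 differences were 3.73 and 3.90, and they depend on the lower threshold of 15.

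The IFN-λ2 arrays did not overlap the others for Ttr, although they differed among themselves, with replicate 1 the highest. Within slides, IFN-λ2 exceeded control by 3.19 on slide 2 and 3.41 on slide 3 on the log2 scale. It exceeded IFN-β by 4.57, 3.74 and 3.41 on slides 1, 2 and 3. For IFN-β against control the log2 difference was -0.17 (SE 0.41, adjusted p = 0.915, limma), with neither group well above background, so a change below the detection limit could not be seen. Another background correction, normexp, lowered the IFN-λ2 difference from control to 2.03, and a lower threshold of 50 lowered it to 2.27.

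Rbp4, the binding partner of Ttr in plasma, was dimmer after both interferons on the scanner's background-subtracted signal. Control replicates 2 and 3 gave 27.1 and 34.9 normalized gPS units, both well above background. The IFN-λ2 arrays gave 7.1, 11.7 and 6.9, none well above background, and the IFN-β arrays gave 12.2, 12.4 and 16.1, of which only replicate 3 was. Neither interferon group overlapped control. After IFN-λ2, Rbp4 was at least 1.43-fold lower than control on this signal. With normexp that difference was nearly gone (log2 difference -0.05, against -1.04 in the fit used here and -1.88 without a lower threshold).

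After IFN-β the fitted log2 difference of Rbp4 from control was -1.004 (SE 0.11, adjusted p = 0.00476, limma, lower in 3 of 3 arrays). The 3 IFN-λ2 arrays were all set to 15, which makes the shared SE too small for this gene. The call was lost without a lower threshold (log2 difference -1.19, adjusted p = 0.124), with normexp (-0.40, adjusted p = 0.811) and with only the control and IFN-β arrays in the fit (adjusted p = 0.0845). IFN-λ2 and IFN-β did not differ detectably (log2 difference -0.03, SE 0.10, adjusted p = 0.879), with 5 of those 6 arrays set to the threshold. Without a lower threshold the log2 difference was -0.69 (adjusted p = 0.126).

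Gc, the vitamin D carrier, was lower on every IFN-λ2 array than on any other array. The probe A_55_P2022158 was well above background on every array and gave 220.8 and 239.1 normalized gPS units on control replicates 2 and 3. The IFN-λ2 arrays gave 42.5, 53.4 and 46.5, and the IFN-β arrays 165.6, 274.3 and 191.1. The IFN-λ2 arrays were the lowest without overlap, whereas the IFN-β arrays lay on both sides of control. The means were 230 ± 12.9 in control (SD, n = 2), 47.5 ± 5.55 with IFN-λ2 (SD, n = 3) and 210 ± 56.8 with IFN-β (SD, n = 3). IFN-λ2 was thus 4.86-fold below control (log2 difference -2.28, SE 0.21) and 4.35-fold below IFN-β (log2 difference -2.12, SE 0.19).

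The other Gc probe, A_51_P349961, whose sequence is printed above, gave the same order. Its control arrays read 93.4 and 146.3 normalized gPS units, its IFN-λ2 arrays 23.4, 24.8 and 31.4, and its IFN-β arrays 83.0, 68.3 and 92.1. It was well above background on 7 arrays, all but IFN-λ2 replicate 2. Its log2 difference of IFN-λ2 was -2.15 from control and -1.61 from IFN-β. Over the 8 arrays the 2 Gc probes correlated with r = 0.927, as a description of 2 probes read on the same arrays. Within slides, the log2 difference of IFN-λ2 from control at A_55_P2022158 was -2.05 on slide 2 and -2.36 on slide 3.

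Gc did not pass the test for IFN-β against control at either probe. The log2 difference from control was -0.16 for A_55_P2022158 (SE 0.21, adjusted p = 0.820, limma) and -0.54 for A_51_P349961 (SE 0.23, adjusted p = 0.420). For the latter the IFN-β arrays were all below both control arrays, while for the former they were not. Normexp brought the Gc difference of IFN-λ2 from control to -1.14 and that from IFN-β to -1.02, with the direction kept.

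**Figure D1:**
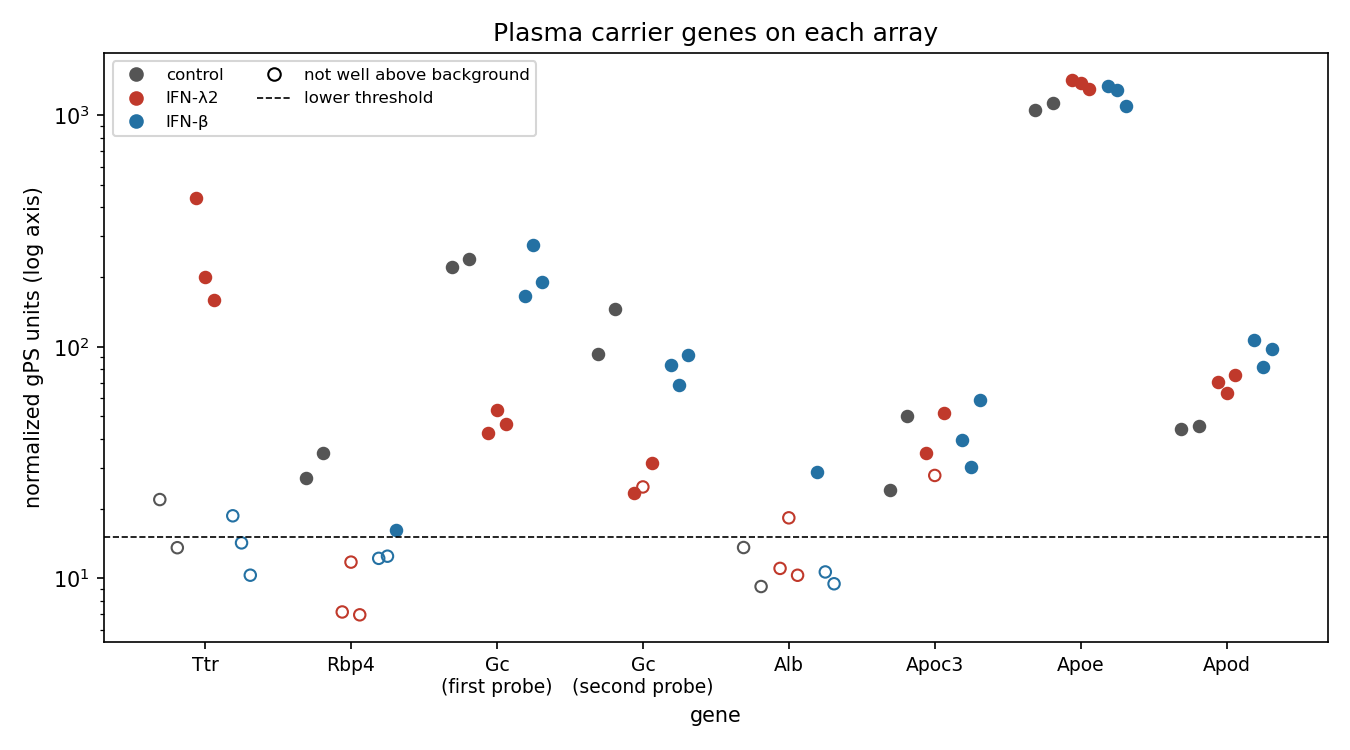
Normalized gPS units (log axis) of the 8 tested probes of 7 plasma carrier genes, with 1 point per array for control (n = 2), IFN-λ2 (n = 3) and IFN-β (n = 3). Open points were not well above background, and the dashed line is the lower threshold of 15. Ttr is highest, and well above background, only on the 3 IFN-λ2 arrays, both Gc probes are lowest there, and Rbp4 is highest in control.

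Albumin gave no level to compare. Its probe was well above background on 1 array, IFN-β replicate 1, at 28.6 normalized gPS units, and the other 7 arrays read from 9.2 to 18.2. The log2 difference from control was 0.31 with IFN-β (SE 0.28, adjusted p = 0.723, limma) and 0.09 with IFN-λ2.

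Apoe was well above background on all 8 arrays. Control replicates 2 and 3 read 1055.6 and 1131.3 normalized gPS units, IFN-λ2 replicates 1425.0, 1385.6 and 1296.6, and IFN-β replicates 1336.7, 1285.9 and 1094.6. The IFN-λ2 arrays lay above both controls, and the IFN-β arrays overlapped both other groups. IFN-λ2 was 1.25-fold above control, a log2 difference of 0.32. IFN-β did not pass the test against control (log2 difference 0.18, SE 0.10, adjusted p = 0.575, limma), nor did IFN-λ2 against IFN-β (0.15, SE 0.09, adjusted p = 0.374).

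Apod was highest after IFN-β. The probe A_55_P2093286 read 44.3 and 45.5 normalized gPS units in control, 70.1, 62.9 and 75.4 with IFN-λ2, and 107.1, 81.7 and 97.7 with IFN-β, all well above background. The 3 groups did not overlap. The means were 44.9 ± 0.828 in control (SD, n = 2), 69.5 ± 6.27 with IFN-λ2 (SD, n = 3) and 95.5 ± 12.8 with IFN-β (SD, n = 3). IFN-β was 2.11-fold above control (log2 difference 1.08, SE 0.13, adjusted p = 0.00817, limma, higher in 3 of 3 arrays), and IFN-λ2 was 1.54-fold above it (log2 difference 0.63).

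Apod with IFN-λ2 minus Apod with IFN-β gave a log2 difference of -0.45 (SE 0.12), which missed the threshold with an adjusted p of 0.0527 (limma). It passed without IFN-β replicate 2 (-0.56, adjusted p = 0.0257) and with a lower threshold of 50 (adjusted p = 0.0288). With normexp it was nearly gone (-0.04, adjusted p = 0.882). The call of IFN-β against control was lost without control replicate 2 (1.06, adjusted p = 0.0654), without control replicate 3 (1.10, adjusted p = 0.0580), with only the groups compared (adjusted p = 0.0750) and with normexp (0.53, adjusted p = 0.317). The other Apod probe, A_55_P2055158, lies 847 bases away on the same strand and read from 3.23 to 7.91. Only 1 of the 2 probes thus gave a signal, and which of them reports the gene was not tested.

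Apoc3 differed between slides more than between groups. The probe A_55_P2013710 read 24.0 and 50.02 normalized gPS units on control replicates 2 and 3, 34.6, 27.8 and 51.5 on IFN-λ2 replicates 1, 2 and 3, and 39.4, 30.2 and 59.0 on the IFN-β replicates. On slide 3 every group was at its highest and on slide 2 at its lowest. The log2 difference of IFN-β from control was 0.25 (SE 0.42, adjusted p = 0.864, limma), and with the slide as a block it was 0.29 (SE 0.08, adjusted p = 0.284). For IFN-λ2 against IFN-β it was -0.17 (SE 0.38, adjusted p = 0.834), and -0.17 with the block (SE 0.06, adjusted p = 0.193). IFN-β was the highest group on each of the 3 slides.

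The array design assigns this Apoc3 probe to an Ensembl transcript, and 2412 bases separate it from the probe for the RefSeq transcript, A_55_P2117155, which read from 3.67 to 7.95 on the 8 arrays. The values were seen at the first probe only, and which transcript they come from was not tested. Apoa1, which neighbours Apoc3 on chromosome 9, read from 3.40 to 8.01, and Apoa4, on the same chromosome, from 3.07 to 13.9. The 2 Apob probes lay between 2.98 and 9.06. No level of these 3 genes can be given in any group.

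**Figure D2:**
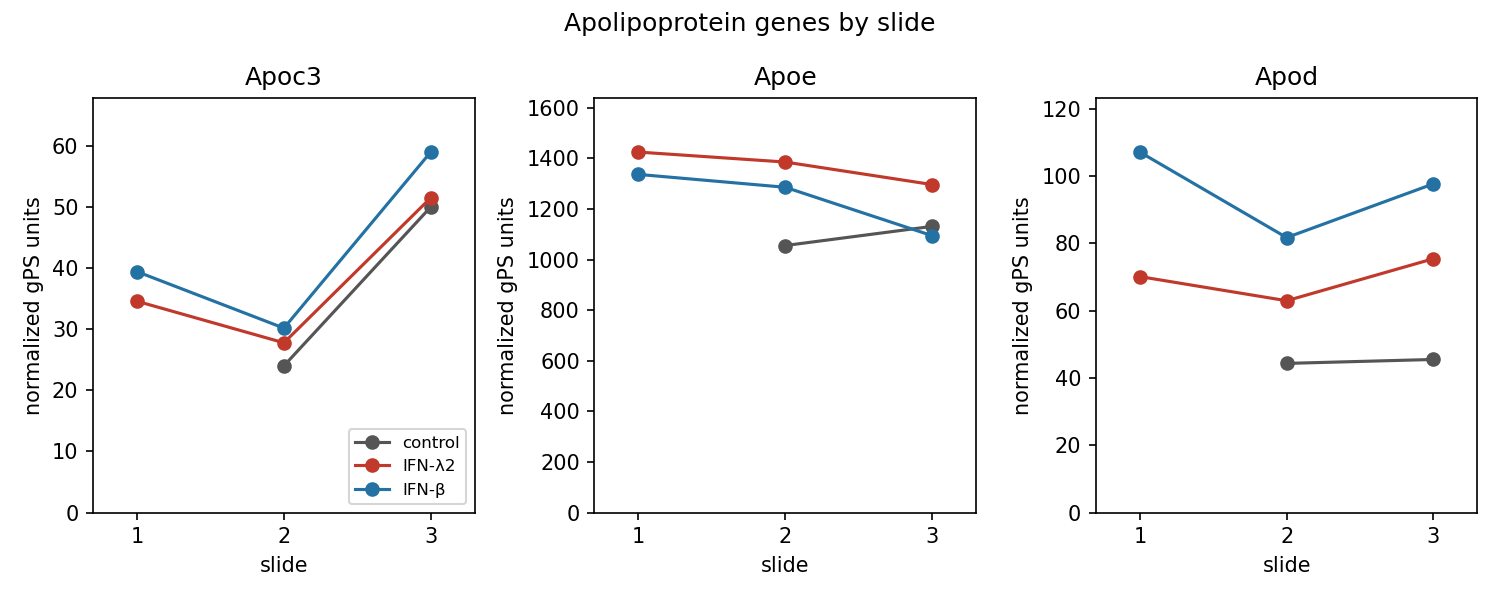
Normalized gPS units of Apoc3, Apoe and Apod on each slide, joined by group (control has no array on slide 1), with every vertical axis starting at 0. Apoc3 follows the slide in all groups, from 24.0 on control replicate 2 to 59.0 on IFN-β replicate 3, while the Apod groups stay apart on every slide.

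Counted over the tested member probes, 5 of 8 were called at an adjusted p under 0.05 for IFN-λ2 against control, where 18.6% of all 25972 probes tested were called, and nothing is read from this count because the comparison was used to choose the genes. In the same comparison 6 of the 8 did not overlap between groups, against 49.5% of all probes. For IFN-β against control 2 of 8 were called, Apod and Rbp4, against 1.65% of all probes, and 3 of 8 did not overlap, against 26.5%. For IFN-λ2 against IFN-β none of the 5 probes of genes other than Ttr and Gc was called by limma or by an equal-variance two-group test of each probe, where limma called 11.2% of all probes. Apod alone of these 5 had an unadjusted p under 0.05 in the same fit. It was also the 1 of the 5 that did not overlap, against 32.4% of all probes. The median log2 difference of the 8 probes was 0.09, 0.01 and -0.19 in the 3 comparisons in this order, and that of all probes was 0.00083, 0.02 and -0.02. Both comparisons with control share the same 2 control arrays, and the 2 Gc probes are not independent of each other.

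**Figure D3:**
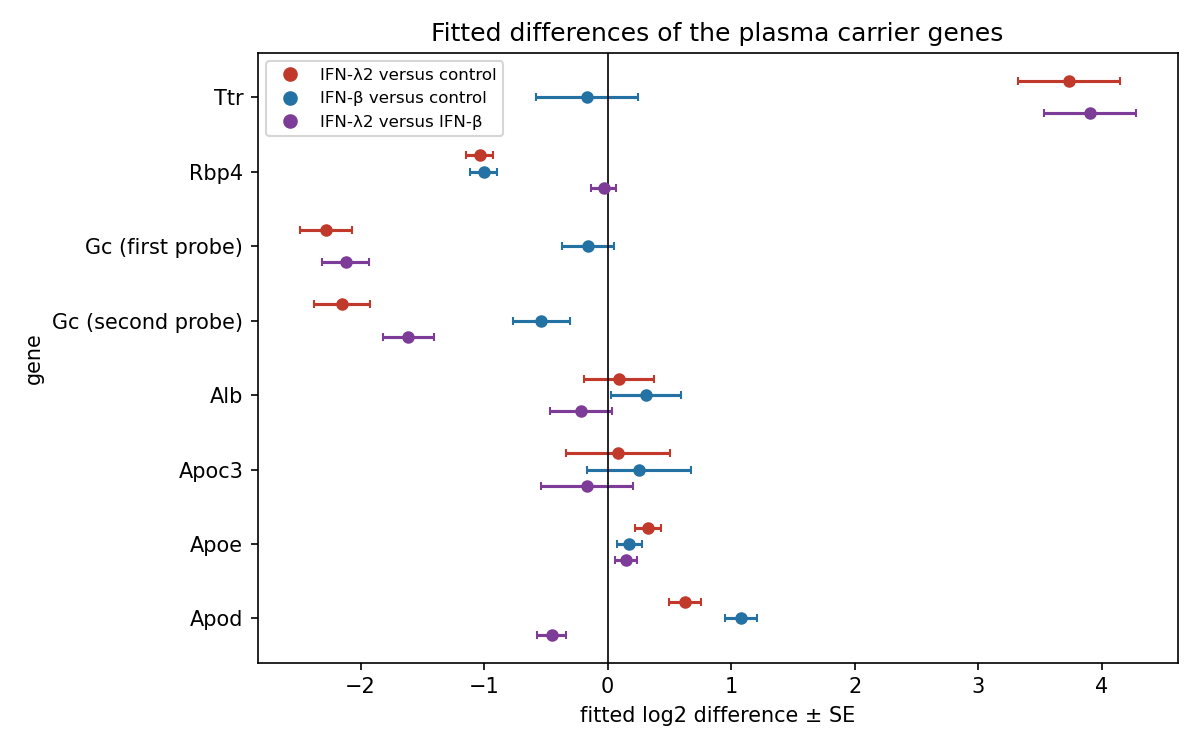
Fitted log2 differences with their SE for the 8 tested probes in the 3 comparisons, from the fit over 8 arrays. Ttr lies at 3.73 and 3.90 in the comparisons of IFN-λ2, Gc (first probe, A_55_P2022158) at -2.28 and -2.12, and Rbp4 and Apod depart from 0 with both interferons.

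Genes that make, convert or read the ligands of these carriers were counted from lists. Of 34 genes of retinoid handling, 22 were tested, and for IFN-λ2 against control 6 were higher, 2 lower and 14 not past the test. Adh1, an alcohol dehydrogenase that can oxidise retinol, averaged 766 ± 230 normalized gPS units with IFN-λ2 (SD, n = 3), 64.3 ± 3.87 in control (SD, n = 2) and 44.6 ± 16.8 with IFN-β (SD, n = 3). Its log2 difference of IFN-λ2 from control was 3.53 (adjusted p = 0.000995, limma). Adh7, a further alcohol dehydrogenase, rose by 1.74 (adjusted p = 0.00798), a call lost with a lower threshold of 50 (0.71, adjusted p = 0.0566), without control replicate 2 (1.499, adjusted p = 0.0509) and by the two-group test of each probe alone (adjusted p = 0.117). Normexp gave 2.65 for Adh1 and 0.93 for Adh7.

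Rarb, a retinoic acid receptor gene that is itself induced by retinoic acid, fell by 1.01 on the log2 scale (adjusted p = 0.00434, limma). Aldh1a1, which makes retinoic acid from retinal, was higher with IFN-λ2 than IFN-β by 0.65 (adjusted p = 0.0370), but not with the slide as a block (adjusted p = 0.0812) nor without any 1 array other than IFN-λ2 replicate 3, with the adjusted p between 0.0503 and 0.131. Against IFN-β, 4 genes of the list passed, each of them higher with IFN-λ2.

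Of 23 genes of vitamin D and thyroid hormone handling, 14 were tested, and 2 were higher and 1 lower with IFN-λ2 than control. S100g, the calcium-binding protein calbindin-D9k and a classical vitamin D target, averaged 364 ± 31.1 normalized gPS units with IFN-λ2 (SD, n = 3) against 156 ± 8.46 in control (SD, n = 2) and 182 ± 15.5 with IFN-β (SD, n = 3). It rose by 1.23 against control (adjusted p = 0.000579, limma) and by 1.001 against IFN-β (adjusted p = 0.00157). Cyp27b1, which makes the active vitamin D hormone, rose by 0.72 in both comparisons (adjusted p = 0.0198 and 0.0184), and lost the call on leaving out control replicate 2, IFN-λ2 replicates 1 or 3, or IFN-β replicate 3 in at least 1 of them (adjusted p up to 0.0997), and against control also with normexp (adjusted p = 0.0634).

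Thra, a thyroid hormone receptor gene, fell by 0.78 with IFN-λ2 against control (adjusted p = 0.00124, limma), a call lost with normexp (-0.62, adjusted p = 0.0574). Dab2, an adaptor of the megalin uptake pathway, was lower with IFN-λ2 than IFN-β (log2 difference -0.62, adjusted p = 0.0198), a call lost on leaving out any IFN-λ2 array or IFN-β replicates 2 or 3 (adjusted p from 0.0518 to 0.0726) or with normexp (adjusted p = 0.0766). The vitamin D receptor gene Vdr did not pass in either comparison of IFN-λ2 (log2 differences -0.45 and -0.34). It was named after its values were seen.

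Among 42 other genes of lipoprotein handling, 33 were tested, and 6 were higher and 3 lower with IFN-λ2 than control. Soat2, which esterifies cholesterol for lipoprotein particles, rose by 0.81 against control (adjusted p = 0.00371, limma) and by 1.21 against IFN-β (adjusted p = 0.000853). Apoh, a plasma glycoprotein also called beta-2-glycoprotein, rose by 0.90 against control (adjusted p = 0.00390), and Mogat2, which rebuilds triglyceride in enterocytes, was higher than with IFN-β by 0.59 (adjusted p = 0.00777).

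Among 46 other plasma protein genes, 31 were tested, and 4 were higher and 3 lower with IFN-λ2 than control. The complement gene C3 averaged 4161 ± 211 normalized gPS units with IFN-λ2 (SD, n = 3), 2050 ± 92.3 in control (SD, n = 2) and 1950 ± 471 with IFN-β (SD, n = 3). It rose by 1.02 against control (adjusted p = 0.00951, limma; 0.97 and 0.0540 without control replicate 2) and by 1.12 against IFN-β (adjusted p = 0.00654). Afp, alpha-fetoprotein, from the same family as Gc and Alb, rose by 0.91 against control (adjusted p = 0.00383, but 0.62 and 0.0522 with normexp), where the Gc probes were lower. Itih3, an inter-alpha-trypsin inhibitor heavy chain, had log2 differences of -1.36 from control (adjusted p = 0.00250) and -1.68 from IFN-β (adjusted p = 0.00124), which normexp brought to -0.68 and -0.88. Fetub, a fetuin, was higher than with IFN-β by 0.83 (adjusted p = 0.0167), a call lost on leaving out IFN-λ2 replicates 1 or 2 or IFN-β replicate 3 (adjusted p from 0.0527 to 0.0674).

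Of 32 liver-enriched regulators, 26 were tested, and 5 were higher and 3 lower with IFN-λ2 than control. Foxa1, a forkhead factor, rose by 1.61 against control and 1.84 against IFN-β (adjusted p = 0.000857 and 0.000652, limma). Pparg, a nuclear receptor of fat metabolism, rose by 1.43 and 1.495 (adjusted p = 0.00188 and 0.00177). Creb3l3, which drives apolipoprotein genes, rose by 0.81 against control (adjusted p = 0.0192), but not with the slide as a block (adjusted p = 0.0655) nor without control replicate 3 (adjusted p = 0.102), IFN-λ2 replicate 1 (adjusted p = 0.0542) or IFN-λ2 replicate 3 (adjusted p = 0.0567). Nr2f1, an orphan nuclear receptor, was higher than with IFN-β by 1.20 (adjusted p = 0.0237), a call lost on leaving out IFN-λ2 replicate 2 or IFN-β replicates 1 or 3 (adjusted p from 0.0523 to 0.0823).

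Hnf4a, a nuclear receptor that drives many liver and gut carrier genes, was outside the naming rule because 1 IFN-λ2 array was not well above background, and it was named after its values were seen. It read 184.7 and 141.4 normalized gPS units in control, 31.0, 23.0 and 25.8 with IFN-λ2, and 127.9, 137.5 and 128.9 with IFN-β. The log2 difference of Hnf4a with IFN-λ2 was -2.61 from control (SE 0.16, adjusted p = 9.68e-05, limma) and -2.32 from IFN-β (SE 0.14, adjusted p = 0.000306). Normexp brought these to -1.04 and -0.85, and a lower threshold of 50 to -1.69 and -1.39, with the calls kept. The IFN-λ2 arrays lay below all others, as for Gc. IFN-β did not pass against control (-0.30, adjusted p = 0.523).

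Over all 5 lists IFN-β against control gave 1 call, Fgb, a fibrinogen gene that was lower (-0.43, adjusted p = 0.0219, limma) but whose probe was well above background on no array. Fgb was named after its values were seen. The medians of the lists for IFN-λ2 against control were 0.11 for plasma proteins, 0.14 for lipoprotein handling, -0.01 for retinoid handling, -0.07 for vitamin D and thyroid hormone handling and -0.11 for liver-enriched regulators. In that comparison the lists' calls, higher and lower together, were 22.6%, 27.3%, 36.4%, 21.4% and 30.8% of the genes tested in the same order, beside 18.6% of all probes, and nothing particular to a list is read from these shares. For IFN-λ2 against IFN-β they were 25.8%, 24.2%, 18.2%, 28.6% and 26.9%, beside 11.2%. Without a filter on dim probes the calls of Aldh1a1, Creb3l3, Cyp27b1, Dab2, Fetub and Nr2f1 were lost (adjusted p from 0.0523 to 0.0958). By the two-group test of each probe alone those of Adh7, Aldh1a1, Apoh, Creb3l3, Cyp27b1, Fetub, Nr2f1 and Rarb were lost, as were those of Foxa1, Itih3, Pparg and Soat2 against control and that of C3 against IFN-β (adjusted p from 0.0541 to 0.120).

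**Figure D4:**
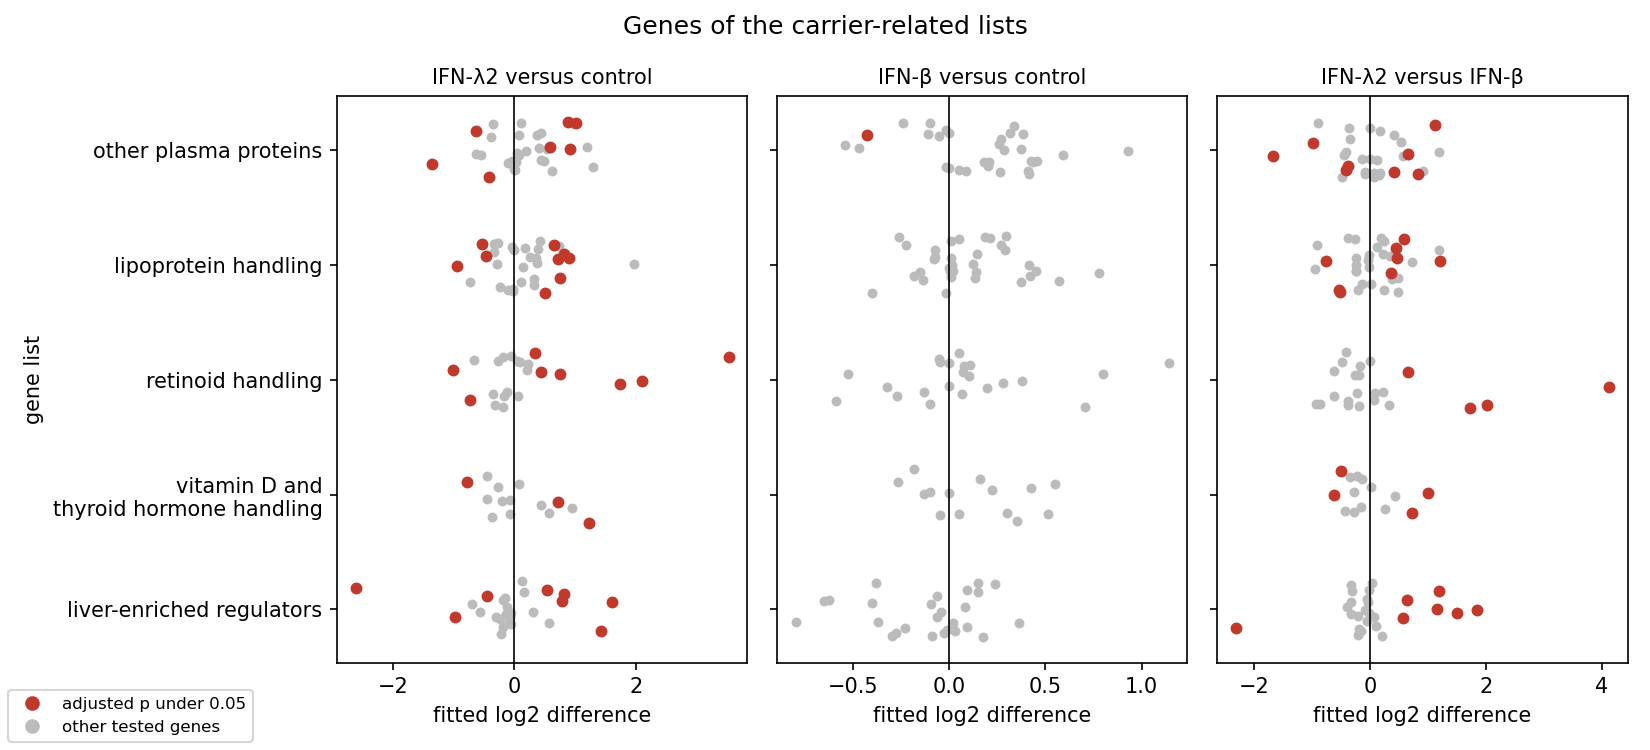
Fitted log2 differences of the tested genes of 5 lists, with 1 point per gene (its brightest probe) in each comparison and vertical scatter only for legibility. Red points passed an adjusted p of 0.05, and the horizontal axes differ between panels. Calls lie on both sides of 0 in every list for IFN-λ2 against control, and IFN-β against control has 1.

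The probes whose pattern over the 8 arrays was most like Ttr were sought among 1731 probes whose group means spanned at least 1 log2 unit. They were those of Fer1l4 (r = 0.995), Slc28a3 (0.995), Gsdmc3 (0.995), Naip6 (0.995) and Ifi209 (0.994). Like Ttr, the probes of Slc28a3, Gsdmc3, Naip6 and Ifi209 were well above background on no control and no IFN-β array, so that much of the likeness is values at the threshold. Most like Gc were Fzd2 (r = 0.989), Tcim (0.989), Limch1 (0.988), Megf6 (0.988) and Sparc (0.988), and of these Fzd2 was well above background on no IFN-λ2 array. These values are descriptions over arrays that fall into groups.

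The labelled cell type was checked by its markers. Of 16 intestinal epithelial markers, 11 were well above background on all arrays, among them Cdh1, Epcam, Vil1 and several keratins, while Cdx2, a defining intestinal factor, was on none. The summed level of this list was 415644 to 418031 normalized gPS units in control, 513660 to 538059 with IFN-λ2 and 434119 to 472331 with IFN-β, and most of it was keratin signal. Krt18 averaged 204042, 240364 and 223069 and Krt20 89359, 147095 and 104395 in the same order. Outside the keratins, the log2 differences of IFN-λ2 from control were 0.65 for Fabp2, 0.44 for Cdh1, 0.48 for Ezr and 1.19 for Sis. They were 0.03 for Epcam, -0.05 for Cldn7, -0.08 for Lgals4 and -0.15 for Vil1. Cdx1, well above background on 4 arrays, gave -1.03. Of these, Fabp2, Cdh1 and Sis passed (adjusted p = 0.00263, 0.0278 and 0.0487, limma). Of 12 hepatocyte markers, 1 (Serpina1a) was on all arrays and 4 (Apoa1, Cps1, Ahsg and Fgb) on none. Without the carriers themselves, the summed hepatocyte markers were 480 to 535 normalized gPS units in control, 358 to 375 with IFN-λ2 and 461 to 492 with IFN-β. Hnf4a carried most of that difference, since without it the sums of the other 8 genes were 339 to 350, 332 to 344 and 324 to 364 in the same order. Serpina1a averaged 153, 197 and 182. The part of these genes in the Ttr result was not tested.

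The choroid plexus list had its highest sum where Ttr was highest, through Aqp1 and Folr1. Of its 7 markers, 3 (Kl, Folr1 and Aqp1) were well above background on all arrays and 2 (Kcnj13 and Clic6) on none. Otx2 was on 1 array. Without Ttr its sum was 4157 to 4644 normalized gPS units in control, 12830 to 18262 with IFN-λ2 and 5338 to 7138 with IFN-β. Most of the sum was the water channel gene Aqp1, with means of 3481, 12886 and 4863, which the gut and other epithelia also express. Folr1 had means of 844, 1911 and 1071, a log2 difference of IFN-λ2 from control of 1.18 (adjusted p = 0.000211, limma). Kl did not pass in that comparison (0.23, adjusted p = 0.706). The part of these genes in the Ttr result was not tested.

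Vim, the intermediate filament gene that makes up most of the fibroblast list's sum, moved with Gc. Of 9 fibroblast markers, Vim alone was well above background on all arrays and 4 were on none, and the sum was 12106 to 15293 normalized gPS units in control, 6799 to 8649 with IFN-λ2 and 14247 to 15933 with IFN-β. Of 7 macrophage markers 4 (Cd68, Csf1r, Itgam and Cd14) were on all arrays and 0 on none. Adgre1 and Ptprc were on 2 arrays and Lyz2 on 1. The macrophage sums, mostly Csf1r, Itgam and Cd14 signal, were 15204 to 18607, 12354 to 14579 and 12332 to 19896 in the same order. Of 9 islet or enteroendocrine markers 1 (Ins2) was on all arrays and 4 on none, with sums of 202 to 228, 183 to 207 and 200 to 242. The part of these lists in the Gc result was not tested, and in bulk RNA fewer cells of a type and less RNA per cell cannot be told apart.

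The arrays themselves were alike in scale, with factors of 0.691 to 0.769. IFN-λ2 replicate 2 had the fewest probes well above background (20991, against 24252 on IFN-β replicate 3) and the highest median of scaled negative controls (8.07, against 3.31). This is the array on which the second Gc probe and the Apoc3 probe were not well above background. No array had a saturated probe, and no replicates shared identical values.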

How the data were processed

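RNA of IEC10 cells (8 samples: 2 control, 3 IFN-λ2, 3 IFN-β) was measured on 1-colour Agilent whole mouse genome arrays. Per the methods RNA was extracted with an RNeasy kit, whereas the labels name Trizol. The deposited scanner files hold the background-subtracted processed signal as an intensity per feature, made by the authors with Agilent Feature Extraction 10.7.3.1 (named in the file headers). A deposited value table of linear intensity holds the same signals times 1 constant per array (100% of values within 0.1%), with medians of 51.4 to 55.9, no centring and values below 15 set to 15. It was used as an alternative. The way background is subtracted changes dim intensities, and the size of several log2 differences changed with it. The number of arrays limits the precision.

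Following the methods, flagged, outlying (outside 1.42 interquartile ranges of on-chip copies) and uneven features (pixel variation above 0.5) were left out, 313 to 424 per array. Copies were averaged geometrically, arrays scaled to a 75th percentile of 1500, and values below 15 set to 15. Probes above 15 on at least 2 arrays (25972 of 39429) were fitted as 3 group means over 8 arrays with lmFit and eBayes of limma 3.58.1 (R 4.3.3), and p-values were adjusted by Benjamini-Hochberg over all probes tested. The script was tested on simulated data. The remaining steps ran in Python 3.11.15 (pandas 2.3.3, numpy 2.4.6). No genome or protein table was used, and promoters came from a RefSeq table. Probe names were updated through accession (26406 probes), symbol (3859) or synonym (735), and 8429 kept the name of the design. The members were taken by the name in the design.

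A fold is given as "at least" where no array of the dimmer group was well above background, as a bound on the background-subtracted signal only. It sets the brighter group's mean log2 against the mean, per array of the dimmer group, of the higher of the dimmest signal well above background and the probe's own.

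The members and lists were chosen with earlier results of these data known. Named were all members and, per list and comparison, up to 3 called genes with the largest log2 difference and all arrays of both groups well above background, plus the 5 probes most like Ttr and Gc. Exceptions are named as such, and 1 gene that the rule names is not reported here. Replicate number equals slide. Deviations from group means of same-numbered IFN-λ2 and IFN-β arrays correlated with 0.18, 0.26 and 0.30, so that the numbers pair these arrays. For the control arrays the values were -0.001 and -0.01 with IFN-λ2 and 0.10 and -0.06 with IFN-β. The methods name a two-group analysis without its statistic, and an equal-variance test of each probe alone, with Benjamini-Hochberg adjustment, was run as its likeness. Alternatives were other background corrections, scalings, thresholds, filters, exclusions, value tables, variance priors, tests and call rules, a replicate block, the groups compared only, another choice of probe, and leaving out each array.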

Additional observations from a re-analysis of the deposited data

How the results depend on the processing

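The members' count of calls for IFN-λ2 against IFN-β (3) was from 2 to 4 under the alternatives run, but these 3 calls are Ttr and the Gc probes, by which the list was chosen, and their count is no sign of stability. For IFN-λ2 against control (5), which the choice also used, it was 3 with normexp and 1 by the two-group test of each probe alone. For IFN-β against control (2) it was 0 with normexp, with only the groups compared and by that two-group test, 1 without a lower threshold and with a threshold of 50, and from 1 to 2 on leaving out single arrays (1 without control replicate 2 and 1 without control replicate 3). The cause was not tested. Directions turned only where the difference was not called or the probe was near the threshold. The log2 difference of Rbp4 between IFN-λ2 and IFN-β became 0.35 with normexp, and that of Apoc3 became 0.22. Leaving out single arrays gave a range of -0.28 to 0.78 for Apoc3 in IFN-β against control, including -0.0065 without IFN-β replicate 3. It gave -0.41 to 0.090 for Apoc3 in IFN-λ2 against IFN-β, including 0.03 without IFN-λ2 replicate 2. For Ttr in IFN-β against control the range was -0.44 to 0.10, the latter without control replicate 2. The replicate block, which pairs arrays by slide, left the members' calls on their side of the threshold, with adjusted p of 0.0258 for Apod and 0.0307 for Rbp4 in IFN-β against control and 0.05002 for Apod between the interferons. Leaving out single arrays also gave -0.45 to 0.61 for Apoc3 in IFN-λ2 against control. Of 960 alternative values of single genes, 9 turned direction, 7 of them of Apoc3. A further 71 kept direction but lost the call, 3 gained 1, and 11 untested values moved by more than the replicate spread. Signal over background limits Ttr, Rbp4, Alb, Apoc3 and the genes on no array.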
